A study of Mus musculus with 36 samples.

Results

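The 8 genes described here are Dscaml1, Kcnip4, Clca3a1, Plcd4, Cpne4, Sh3rf3, Adamtsl3 and Xkr4, out of 15730 genes counted in mouse kidney cortex. They were picked from measured values of these same libraries, as genes outside the p53 pathway that differed strongly between diabetic and nondiabetic mice and that have little known role in the kidney. No numerical threshold defined the choice, so their differences between diabetic and nondiabetic mice are given as a description. The open question for them is whether treatment with either of 2 lipoxins altered their levels. All 8 were in the count table and all 8 passed the filter on low counts, which 15726 genes passed in all.

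The study sequenced ribosomal RNA-depleted total RNA from kidney cortex in 36 libraries, 6 in each of 6 groups. Every group consisted of male ApoE−/− mice on a C57BL/6 background, so the controls also lacked apolipoprotein E; Apoe itself was still counted at 2.15 ± 0.462 CPM in nondiabetic vehicle mice (SD, n = 6), where CPM is counts per 1000000 counts after TMM scaling of the library size. The 3 diabetic groups had received 5 daily intraperitoneal injections of streptozotocin at 55 mg/kg from the age of 6 weeks, a toxin that destroys the insulin-producing beta cells. Effects of streptozotocin itself and of the diabetes that follows cannot be told apart in this design, and the labels give no sham injection for the 3 nondiabetic groups. Mice of each state were given 0.1% ethanol as vehicle, lipoxin A4 (LXA4) at 5 µg/kg, or its synthetic analogue benzo-LXA4 at 1.7 µg/kg. Dosing ran from week 10 to week 16 of a follow-up of 16 weeks. The 6 groups are called nondiabetic vehicle, nondiabetic LXA4, nondiabetic benzo-LXA4, diabetic vehicle, diabetic LXA4 and diabetic benzo-LXA4. Within a group the labels count replicates from 1 to 6 without stating that they are different mice. The p-values therefore reflect the spread over these libraries, part of which may be technical.

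Library totals ran from 8896193 to 43305005 counts. In diabetic LXA4 replicate 6, with the lowest total, the 4 abundant genes Gm26917, Gm23935, Gm42418 and Rpph1 took 56.7% of counts. In nondiabetic vehicle replicate 3, with 10086698 counts, they took 17.5%, and in the other 34 libraries from 1.88% to 6.73%. Both libraries were kept, and values without them are given where they changed a call. Defining markers of cortical nephron segments were present in every group, with a median summed level of 14 proximal tubule markers between 16795 and 26135 CPM.

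The 8 genes encode proteins of different kinds. Dscaml1 belongs to the immunoglobulin superfamily of homophilic adhesion molecules and is known from the wiring of the retina, and Adamtsl3 encodes a secreted matrix glycoprotein that resembles the ADAMTS proteases but lacks their catalytic domain. Kcnip4, Plcd4 and Cpne4 encode calcium-responsive proteins: a subunit that binds voltage-gated potassium channels of the Kv4 class, a phospholipase that cleaves the membrane lipid PIP2, and a copine that binds phospholipid when calcium rises. Clca3a1 encodes a regulator of calcium-activated chloride conductance, Sh3rf3 a ubiquitin ligase of the POSH family that scaffolds JNK signalling, and Xkr4 a phospholipid scramblase switched on by caspase cleavage. Lipoxins are lipid mediators made from arachidonic acid that act in the resolution of inflammation.

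Diabetic vehicle mice had higher levels than nondiabetic vehicle mice of 7 of the genes and a lower level of Cpne4. On the log2 scale the differences ran from 2.95 for Dscaml1 and 2.55 for Kcnip4, through 1.87 for Clca3a1, 1.46 for Plcd4, 1.45 for Sh3rf3 and 1.01 for Adamtsl3, to 0.88 for Xkr4, and that for Cpne4 was −1.31. The median over all genes tested was −0.01. An adjusted p under 0.05 was reached by 7 of the 8, all except Adamtsl3, in a comparison where 5.60% of all genes reached it (3.44% higher and 2.16% lower), and the level ranges of the vehicle groups did not overlap for 4 of the 8, against 2.58% of all genes. Nothing is read from those counts, because the genes were chosen for differing between diabetic and nondiabetic mice.

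**Figure D1:**
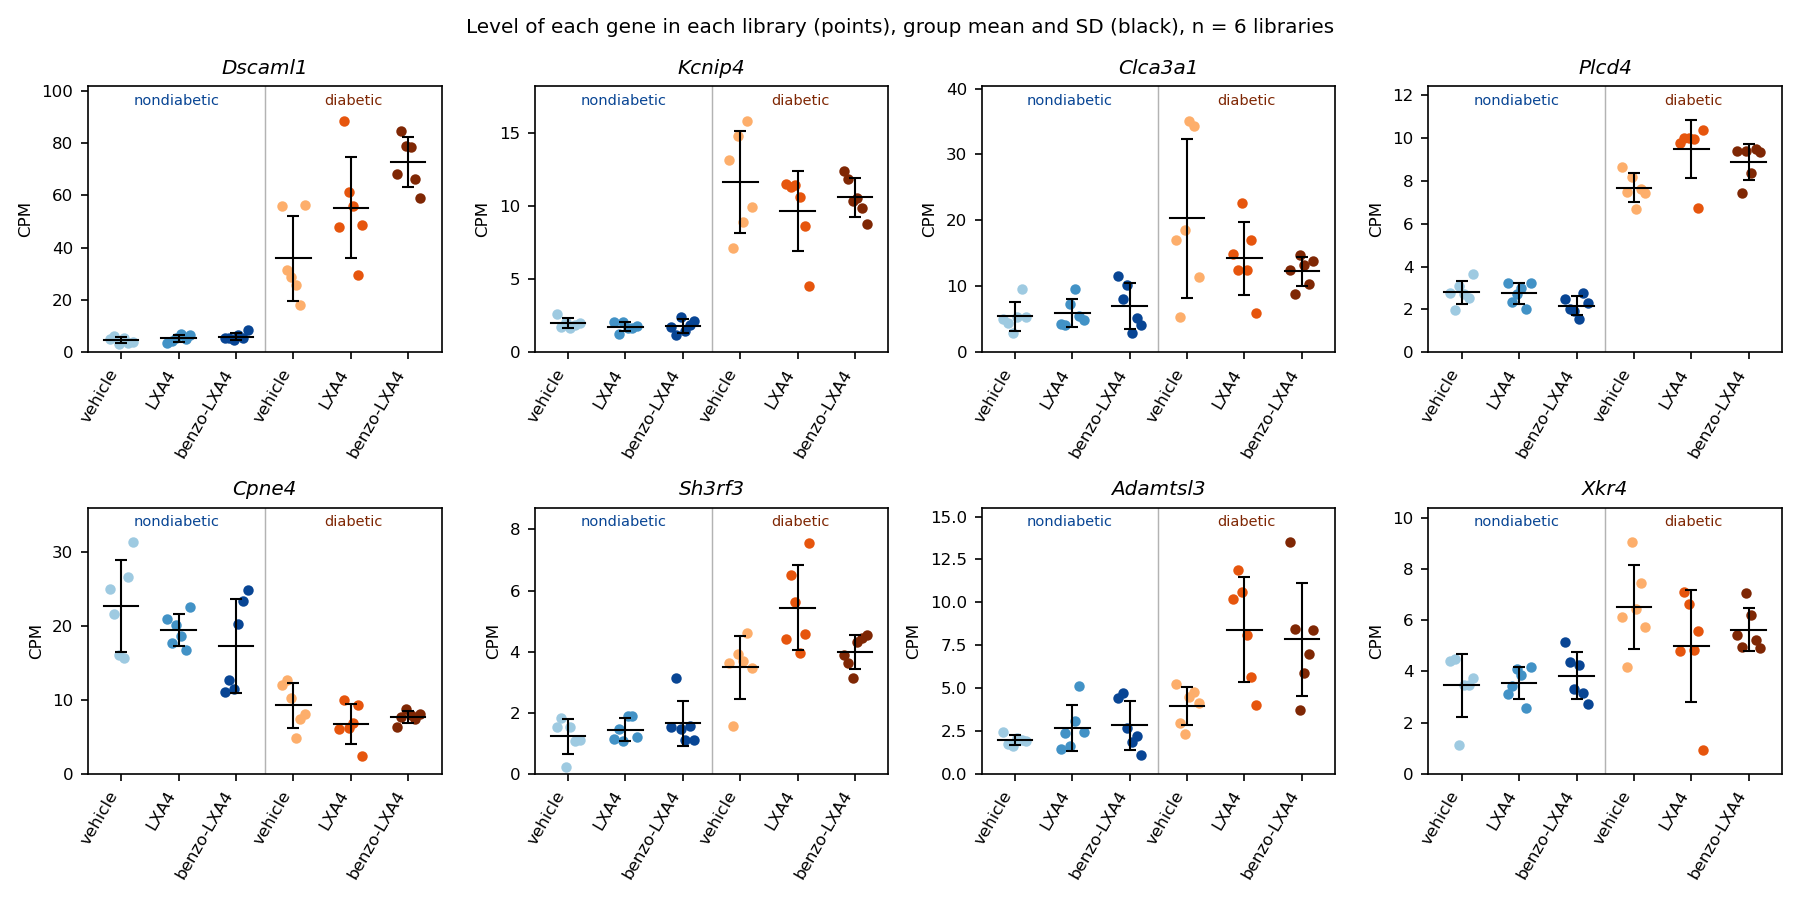
Level of each of the 8 genes in every library, in CPM on a linear axis starting at 0, with the 3 nondiabetic groups on the left and the 3 diabetic groups on the right of each panel. Points are libraries, and the black line and bars are the mean and SD of 6 libraries. Cpne4 alone is lower in the diabetic groups; Dscaml1 runs from 17.9 to 56.3 CPM in diabetic vehicle and from 59.1 to 84.6 CPM in diabetic benzo-LXA4 mice.

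The same contrast was available in mice given either compound, from libraries that the vehicle contrast does not contain. Since the choice of genes does not say which libraries it rested on, these values are not independent support. Among mice given LXA4, 7 of the 8 genes had an adjusted p under 0.05 (edgeR, Benjamini-Hochberg), 6 higher and 1 lower, against 27.7% of all genes (15.4% higher and 12.3% lower). The groups did not overlap for 5 of them, against 12.1% of all genes. Among mice given benzo-LXA4, 6 of the 8 passed, 5 higher and 1 lower, against 4.06% of all genes (2.81% higher and 1.25% lower), and 5 did not overlap, against 5.81% of all genes. The gene that did not pass with LXA4 was Xkr4, and those that did not pass with benzo-LXA4 were Clca3a1 and Xkr4.

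**Figure D2:**
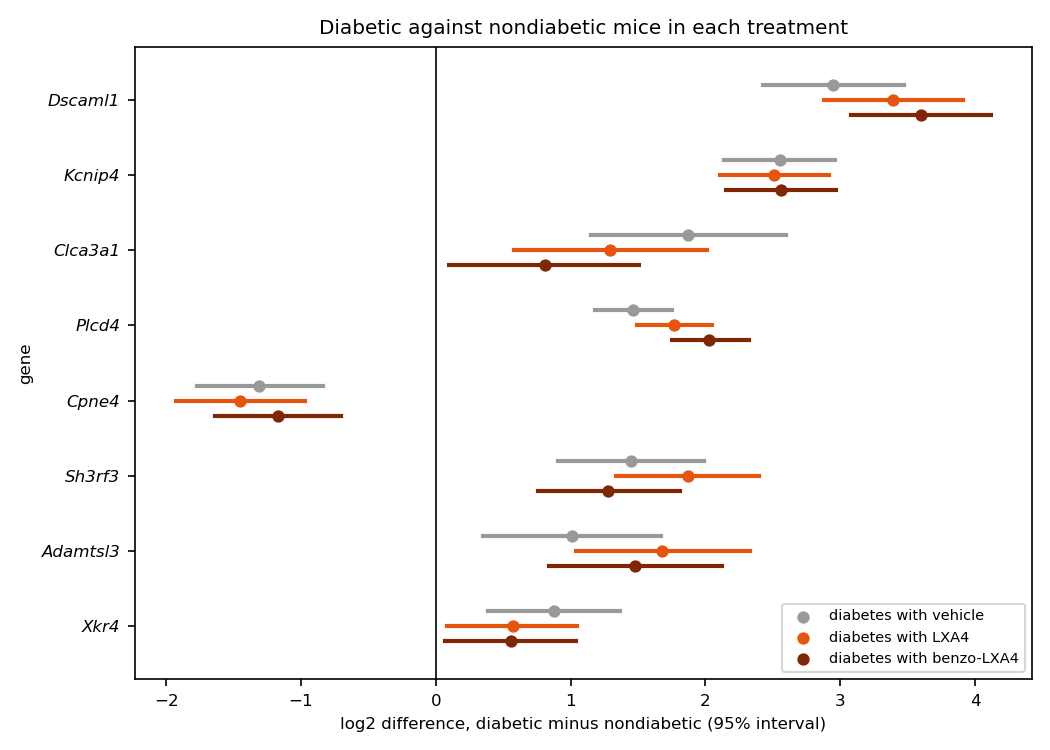
Difference between diabetic and nondiabetic mice for each gene, on the log2 scale, in vehicle, LXA4 and benzo-LXA4 groups. Points are estimates from 1 fit of 36 libraries and lines are 95% intervals. Kcnip4 sits between 2.51 and 2.56 in the 3 treatments, whereas Clca3a1 runs from 0.81 to 1.87.

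Dscaml1 showed the widest difference of the 8. In nondiabetic mice its lowest, median and highest levels were 3.09, 4.54 and 6.34 CPM with vehicle, 3.40, 5.25 and 6.88 CPM with LXA4, and 4.82, 5.39 and 8.37 CPM with benzo-LXA4. In diabetic mice they were 17.9, 30.0 and 56.3 CPM with vehicle, 29.7, 52.2 and 88.3 CPM with LXA4, and 59.1, 73.2 and 84.6 CPM with benzo-LXA4. Every diabetic library of each treatment lay above every nondiabetic library of the same treatment. Diabetic vehicle libraries fell into a pair (replicates 1 and 6, at 56.0 and 56.3 CPM) and 4 libraries from 17.9 to 31.3 CPM, and their coefficient of variation was 45.2%, against 13.2% in diabetic benzo-LXA4 mice. The difference between diabetic and nondiabetic mice was 3.39 with LXA4 (95% interval 2.88 to 3.91) and 3.60 with benzo-LXA4 (3.08 to 4.12), which are 10.5-fold and 12.1-fold.

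Dscaml1 (ENSMUSG00000032087) spans 327.1 kb of chromosome 9, from 45426628 to 45753712 on the plus strand of GRCm38. A noncoding antisense gene, 4833428L15Rik, lies within that span and shares 2 exonic bases with it. Its level was 0.0357 ± 0.0342 CPM in nondiabetic vehicle and 0.703 ± 0.338 CPM in diabetic vehicle mice (SD, n = 6 per group), a log2 difference of 3.99 (SE 0.562, adjusted p = 2.01e-05 by edgeR). The libraries were made with a directional kit, but the strand setting of the counting is not given in the sources used here, so reads of the gene and of its antisense partner may not be separated. None of the 9039 distinct 50-base stretches in the annotated transcripts of Dscaml1 occurred in another gene's transcripts.

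Adamtsl3, the secreted matrix glycoprotein, was counted at a few CPM. With vehicle its lowest, median and highest levels were 1.60, 1.92 and 2.43 CPM in nondiabetic and 2.34, 4.29 and 5.24 CPM in diabetic mice, and the ranges touched only through diabetic replicate 3. With LXA4 they were 1.44, 2.40 and 5.10 CPM in nondiabetic and 4.01, 9.15 and 11.9 CPM in diabetic mice. With benzo-LXA4 they were 1.11, 2.43 and 4.68 CPM in nondiabetic and 3.73, 7.71 and 13.5 CPM in diabetic mice. In both treated states 5 of 6 diabetic libraries lay above all nondiabetic libraries of that treatment. On the log2 scale the difference was 1.68 with LXA4 (adjusted p = 0.000370) and 1.48 with benzo-LXA4 (0.00463).

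Adamtsl3 (ENSMUSG00000070469) lies on chromosome 7 from 82335694 to 82614450 on the plus strand. Its RefSeq promoter window on GRCm38.p6, 250 bases before to 50 bases after the start, is shown because it is the richest in CG of the 9 windows found for 6 of the 8 genes. It holds 46 CG dinucleotides and 78.7% G or C, against medians of 7 and 52.7% over all 32851 windows. The capitals mark 5 GC boxes (GGGCGG on either strand), a motif that 35.7% of all windows hold.

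Adamtsl3 promoter, chr7:82335444-82335743, plus strand: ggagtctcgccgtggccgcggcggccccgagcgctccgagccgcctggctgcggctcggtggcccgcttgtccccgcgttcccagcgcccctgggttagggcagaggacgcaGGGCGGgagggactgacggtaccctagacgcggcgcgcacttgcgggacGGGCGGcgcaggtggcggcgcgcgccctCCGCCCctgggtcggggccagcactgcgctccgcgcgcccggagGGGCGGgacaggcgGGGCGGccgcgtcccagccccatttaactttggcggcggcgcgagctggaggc

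Kcnip4, the potassium channel subunit, differed by nearly the same amount in each treatment. Its lowest, median and highest levels in nondiabetic mice were 1.68, 1.93 and 2.63 CPM with vehicle, 1.23, 1.71 and 2.09 CPM with LXA4, and 1.16, 1.78 and 2.41 CPM with benzo-LXA4. In diabetic mice they were 7.10, 11.5 and 15.8 CPM with vehicle, 4.49, 11.0 and 11.5 CPM with LXA4, and 8.75, 10.4 and 12.4 CPM with benzo-LXA4. The lowest diabetic value, 4.49 CPM, came from diabetic LXA4 replicate 6 and rested on 19 counts. No diabetic library overlapped a nondiabetic library of any treatment. The log2 differences of 2.51 with LXA4 (adjusted p = 7.94e-11) and 2.56 with benzo-LXA4 (7.21e-11) lay within the interval of 2.14 to 2.96 of the vehicle contrast.

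Kcnip4 (ENSMUSG00000029088) is by far the longest of the 8 genes, 1135.4 kb on the minus strand of chromosome 5 from 48389502 to 49524907. It shares 168 exonic bases with 5730480H06Rik on the opposite strand, which was at 26.6 ± 3.61 CPM in nondiabetic and 30.4 ± 1.77 CPM in diabetic vehicle mice (log2 0.18, adjusted p = 0.364), and 3.49% of its 50-base stretches occur in other genes. The table of promoters gives 2 windows for it, shown here because Kcnip4 was chosen as a gene outside the p53 pathway and the downstream window holds a sequence of the p53 half-site pattern. That pattern, searched on both strands, occurs in 8.36% of all windows and in 1 of the 9 windows of these genes. Both Kcnip4 windows lie inside the gene as annotated, away from its start at 49524907. Upstream and downstream give only their order relative to each other. The capitals mark 2 CCAAT boxes (CCAAT on either strand, in 37.4% of all windows) in the upstream window and the half-site in the downstream window; a match of letters is a description and shows no binding.

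Kcnip4 upstream promoter, chr5:49285610-49285909, minus strand: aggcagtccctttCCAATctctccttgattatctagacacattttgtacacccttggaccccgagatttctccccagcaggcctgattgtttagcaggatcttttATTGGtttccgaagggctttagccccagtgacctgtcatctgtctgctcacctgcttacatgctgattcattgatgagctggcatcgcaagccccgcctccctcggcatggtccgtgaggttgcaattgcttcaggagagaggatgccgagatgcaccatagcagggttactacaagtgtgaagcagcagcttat

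Kcnip4 downstream promoter, chr5:48599633-48599932, minus strand: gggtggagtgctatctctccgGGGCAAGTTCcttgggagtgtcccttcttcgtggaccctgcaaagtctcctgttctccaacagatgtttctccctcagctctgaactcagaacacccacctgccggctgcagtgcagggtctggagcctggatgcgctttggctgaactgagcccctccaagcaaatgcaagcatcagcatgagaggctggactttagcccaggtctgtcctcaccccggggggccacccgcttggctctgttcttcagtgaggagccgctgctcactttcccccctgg

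Plcd4, the phospholipase, had tight groups. With vehicle its lowest, median and highest levels were 1.99, 2.75 and 3.65 CPM in nondiabetic and 6.68, 7.56 and 8.65 CPM in diabetic mice. With LXA4 they were 2.03, 2.87 and 3.24 CPM in nondiabetic and 6.75, 9.99 and 10.4 CPM in diabetic mice. With benzo-LXA4 they were 1.55, 2.15 and 2.77 CPM in nondiabetic and 7.42, 9.36 and 9.48 CPM in diabetic mice. Diabetic and nondiabetic libraries were apart in every treatment, and the coefficient of variation was 8.86% in diabetic vehicle mice, the lowest of the 48 combinations of gene and group. Expressed as log2, the difference was 1.77 with LXA4 (interval 1.49 to 2.05) and 2.03 with benzo-LXA4 (1.75 to 2.32).

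Plcd4 (ENSMUSG00000026173) lies on chromosome 1 from 74542888 to 74567794 on the plus strand, and 2101 of its exonic bases are also exonic in Zfp142 on the opposite strand. Of its 50-base stretches 29% occur in other genes, most of them in Zfp142. Zfp142 was at 23.0 ± 1.06 CPM in nondiabetic and 22.0 ± 2.91 CPM in diabetic vehicle mice (log2 −0.06, adjusted p = 0.699), so the level counted for that neighbour was about the same where Plcd4 differed. Its upstream promoter window is given beside those of Kcnip4 and Adamtsl3 to show how unlike the windows of these raised genes are. The Plcd4 and Adamtsl3 windows lie at the annotated start of the gene, whereas those of Kcnip4 lie inside it. The Plcd4 window has 3 CG dinucleotides and 55.3% G or C, and the capitals mark a single CCAAT box, read on the opposite strand.

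Plcd4 upstream promoter, chr1:74542639-74542938, plus strand: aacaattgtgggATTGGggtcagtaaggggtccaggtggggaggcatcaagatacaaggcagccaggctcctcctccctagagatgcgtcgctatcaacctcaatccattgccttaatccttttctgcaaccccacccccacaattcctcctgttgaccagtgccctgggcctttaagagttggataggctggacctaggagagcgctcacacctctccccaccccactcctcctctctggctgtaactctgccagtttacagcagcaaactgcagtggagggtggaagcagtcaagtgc

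Cpne4, the copine, was the gene with lower levels in diabetic mice. With vehicle its lowest, median and highest levels were 15.6, 23.3 and 31.3 CPM in nondiabetic and 4.87, 9.20 and 12.7 CPM in diabetic mice. With LXA4 they were 16.7, 19.4 and 22.5 CPM in nondiabetic and 2.36, 6.53 and 9.92 CPM in diabetic mice. With benzo-LXA4 they were 11.0, 16.5 and 24.9 CPM in nondiabetic and 6.26, 7.77 and 8.71 CPM in diabetic mice. All diabetic libraries lay below all nondiabetic libraries of the same treatment, and the lowest, 2.36 CPM, was diabetic LXA4 replicate 6 with 10 counts. Diabetic and nondiabetic mice differed by a log2 of −1.45 with LXA4 (adjusted p = 7.10e-05) and −1.17 with benzo-LXA4 (0.00222).

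In bulk tissue, fewer cells of a type and less RNA per cell cannot be told apart. Proximal tubule markers, the most abundant epithelium of the cortex, had a median summed level of 22680 CPM (range 16990 to 27335) in nondiabetic vehicle and 17928 CPM (12102 to 22251) in diabetic vehicle mice. Of the 14, Miox at log2 −0.83 (adjusted p = 0.00381) and Slc7a13 at −0.71 (0.0287) fell in that contrast and none rose. With LXA4 the summed markers ran from 24340 to 27667 CPM in nondiabetic and from 9550 to 19476 CPM in diabetic mice, without overlap. With benzo-LXA4 they ran from 18087 to 24834 CPM and from 15857 to 19566 CPM, and overlapped. Whether a change in proximal tubule RNA has a part in the Cpne4 difference was not tested. Cpne4 (ENSMUSG00000032564) lies on chromosome 9 from 104547286 to 105034544 on the plus strand, and none of its 50-base stretches occur in another gene. The upstream window of Cpne4 is shown as that of the gene that was lower. It lies inside the gene as annotated, past the start at 104547286, and is upstream only of another window of that gene. It holds 14 CG dinucleotides and 58.7% G or C, and the capitals mark an E-box (CACGTG, in 7.15% of all windows) and a GC box. The series title names the Egr-1 network; the EGR1 motif GCGTGGGCG was found on either strand in 0 of the 9 windows and in 0.612% of all windows, and the TATA box TATAAA likewise in 0 of the 9 and 13.6% of all. That says only that these letters are not in these windows. No matches of different motifs shared bases.

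Cpne4 upstream promoter, chr9:104569405-104569704, plus strand: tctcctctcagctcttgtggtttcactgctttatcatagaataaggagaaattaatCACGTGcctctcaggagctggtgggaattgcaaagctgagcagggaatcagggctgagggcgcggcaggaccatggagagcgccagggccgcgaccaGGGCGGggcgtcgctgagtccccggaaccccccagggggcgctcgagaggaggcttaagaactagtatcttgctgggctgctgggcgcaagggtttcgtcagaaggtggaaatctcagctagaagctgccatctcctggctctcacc

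Clca3a1, the chloride conductance regulator, varied widely between diabetic vehicle libraries. With vehicle its lowest, median and highest levels were 2.86, 5.18 and 9.58 CPM in nondiabetic and 5.31, 17.8 and 35.1 CPM in diabetic mice, where its coefficient of variation was 59.6%, the highest of the 8 genes; in each of the other groups another of the 8 had a higher one. With LXA4 they were 4.20, 5.14 and 9.61 CPM in nondiabetic and 5.90, 13.7 and 22.6 CPM in diabetic mice. With benzo-LXA4 they were 2.85, 6.66 and 11.5 CPM in nondiabetic and 8.89, 12.9 and 14.7 CPM in diabetic mice. The groups overlapped in every treatment. Diabetic vehicle replicates 4 and 5, at 35.1 and 34.3 CPM, were the highest of all 36 libraries, and diabetic vehicle replicate 2, at 5.31 CPM, lay among the nondiabetic ones. Between the states the log2 difference was 1.29 with LXA4 (adjusted p = 0.00734) and 0.81 with benzo-LXA4 (0.214).

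Clca3a1 (ENSMUSG00000056025) lies on chromosome 3 from 144729677 to 144760977 on the minus strand, in a cluster of near copies. Of its 50-base stretches 26.8% occur in other genes, most often in Clca3a2, so for reads from those stretches the copy of origin is uncertain. Clca3a2 was counted at 1.25 ± 1.26 CPM in nondiabetic and 0.345 ± 0.379 CPM in diabetic vehicle mice (SD, n = 6 per group), a log2 difference of −1.81 that did not pass (adjusted p = 0.258).

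Sh3rf3, the ubiquitin ligase, had the lowest median level of the 8 genes in each group. In diabetic LXA4 mice, however, Xkr4 had the lower mean, 4.98 CPM against 5.44 CPM for Sh3rf3. With vehicle its lowest, median and highest levels were 0.229, 1.32 and 1.84 CPM in nondiabetic and 1.57, 3.66 and 4.61 CPM in diabetic mice. With LXA4 they were 1.06, 1.35 and 1.90 CPM in nondiabetic and 3.94, 5.11 and 7.56 CPM in diabetic mice. With benzo-LXA4 they were 1.10, 1.48 and 3.12 CPM in nondiabetic and 3.13, 4.10 and 4.53 CPM in diabetic mice. The groups were apart with either compound, with benzo-LXA4 only by the step from 3.12 to 3.13 CPM, and overlapped with vehicle through diabetic replicate 2. The vehicle minimum rested on 2 counts in nondiabetic vehicle replicate 3, and without that library the vehicle difference was 1.31 in place of 1.45. The log2 difference was 1.87 with LXA4 (adjusted p = 1.01e-05) and 1.28 with benzo-LXA4 (0.00269). Sh3rf3 (ENSMUSG00000037990) lies on chromosome 10 from 58813359 to 59138916 on the plus strand.

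Xkr4, the scramblase, had the smallest difference. With vehicle its lowest, median and highest levels were 1.14, 3.62 and 4.50 CPM in nondiabetic and 4.19, 6.28 and 9.06 CPM in diabetic mice. With LXA4 they were 2.58, 3.66 and 4.16 CPM in nondiabetic and 0.945, 5.20 and 7.11 CPM in diabetic mice. With benzo-LXA4 they were 2.74, 3.79 and 5.16 CPM in nondiabetic and 4.92, 5.31 and 7.06 CPM in diabetic mice. The lowest values with vehicle and with LXA4 were those of the 2 shallow libraries, at 10 and 4 counts. The difference was 0.57 with LXA4 (adjusted p = 0.0732) and 0.56 with benzo-LXA4 (0.208), neither of which passed. Without diabetic LXA4 replicate 6 the LXA4 value was 0.72 (0.00841), and without both shallow libraries it was 0.71 (0.00172) and the benzo-LXA4 value 0.55 (0.0234). Without nondiabetic vehicle replicate 3 the vehicle difference was 0.74 and no longer reached an adjusted p of 0.05. The same loss followed from leaving out diabetic vehicle replicate 3 (0.77) or 5 (0.85). Without both shallow libraries, however, the vehicle difference was 0.74 and passed (edgeR adjusted p = 0.00580). Xkr4 (ENSMUSG00000051951) lies on chromosome 1 from 3205901 to 3671498 on the minus strand.

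Levels per kilobase of exon put the genes in a different order in the vehicle groups of the 2 states. In nondiabetic vehicle mice Cpne4 led at 4.13 CPM per kb, followed by Clca3a1 at 1.39, and Xkr4, Kcnip4 and Dscaml1 lay close together at 0.567, 0.548 and 0.514 CPM per kb, nearer than their spread between libraries. In diabetic vehicle mice Clca3a1 was at 5.21, Dscaml1 at 4.04 and Kcnip4 at 3.20 CPM per kb, each nearer to the next than their spread between libraries, and Cpne4 came next at 1.68. Dscaml1 was first in the other two diabetic groups, at 6.21 CPM per kb with LXA4, where Clca3a1 was at 3.64, and at 8.14 with benzo-LXA4, where Clca3a1 was at 3.15. Sh3rf3 was last in both vehicle groups, at 0.168 and 0.480 CPM per kb, in the diabetic one within its spread of Adamtsl3 at 0.514.

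No gene of the 8 passed the test of either compound against vehicle in diabetic mice. These comparisons share the diabetic vehicle libraries with each other and with the vehicle contrast between diabetic and nondiabetic mice, on which the choice of genes may rest. For LXA4, 0 of the 8 had an adjusted p under 0.05, where 0.356% of all genes did, and in 0 of the 8 did the groups not overlap, where 0.820% of all genes were apart; 4 of the 8 had an unadjusted p under 0.05, as did 15.7% of all genes. For benzo-LXA4, 0 of the 8 and 0% of all genes passed by edgeR, whereas DESeq2 called 52 genes, and 3 of the 8 had an unadjusted p under 0.05, as did 5.67% of all genes (891). The groups were apart for 1 of the 8, Dscaml1, against 1.23% of all genes.

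Dscaml1 was higher, not lower, in diabetic mice given a compound. Against diabetic vehicle mice (36 ± 16.3 CPM) its level was 55.3 ± 19.4 CPM with LXA4 and 72.6 ± 9.58 CPM with benzo-LXA4 (SD, n = 6 per group). The log2 difference was 0.62 with LXA4 (SE 0.228, interval 0.16 to 1.09, adjusted p = 0.201), with 5 of 6 libraries above the vehicle mean. With benzo-LXA4 it was 1.01 (SE 0.228, interval 0.55 to 1.48), 6 of 6 libraries lay above all vehicle libraries, and the unadjusted p of 9.21e-05 had rank 5 among all 15726 genes, with an adjusted p of 0.187. DESeq2 called the benzo-LXA4 difference (adjusted p = 0.0125), as did edgeR without the 2 shallow libraries (0.0466), and over all its alternatives the adjusted p ran from 0.0125 to 0.486. In nondiabetic mice the difference was 0.18 with LXA4 (interval −0.33 to 0.70) and 0.36 with benzo-LXA4 (−0.15 to 0.88).

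Adamtsl3 had the largest difference of the 8 with LXA4. Its level was 3.98 ± 1.11 CPM in diabetic vehicle, 8.41 ± 3.08 CPM in diabetic LXA4 and 7.84 ± 3.31 CPM in diabetic benzo-LXA4 mice (SD, n = 6 per group). The log2 difference was 1.11 with LXA4 (SE 0.310, adjusted p = 0.116), with 6 of 6 libraries above the vehicle mean, and 0.98 with benzo-LXA4 (SE 0.308, adjusted p = 0.429), with 5 of 6 above it. DESeq2 called the LXA4 difference (adjusted p = 0.0375), and over all its alternatives that adjusted p ran from 0.0375 to 0.481. For the benzo-LXA4 difference DESeq2 gave no adjusted p. Both differences pointed away from the nondiabetic level.

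The other 6 genes differed by less. Sh3rf3 was 0.60 higher with LXA4 (interval 0.09 to 1.11, adjusted p = 0.250) and 0.19 higher with benzo-LXA4 (−0.32 to 0.69). Plcd4 was 0.30 higher with LXA4 (0.03 to 0.57, adjusted p = 0.275) and 0.21 higher with benzo-LXA4 (−0.05 to 0.48). For Cpne4 the values were −0.37 (−0.85 to 0.10) and −0.27 (−0.74 to 0.20). In these 3 genes, as in Dscaml1 and Adamtsl3, the estimate lay on the side away from the nondiabetic level. Clca3a1, Kcnip4 and Xkr4 had estimates on the side of the nondiabetic level. Clca3a1 was at −0.49 with LXA4 (−1.18 to 0.21) and −0.73 with benzo-LXA4 (−1.43 to −0.04, edgeR adjusted p = 0.844). All 6 of 6 benzo-LXA4 libraries lay below the vehicle mean of 20.3 CPM, but 0 lay below every vehicle library. That mean was raised by diabetic vehicle replicates 4 and 5, at 35.1 and 34.3 CPM. Kcnip4 was at −0.23 (−0.60 to 0.14) and −0.13 (−0.50 to 0.24), and Xkr4 at −0.32 (−0.80 to 0.16) and −0.21 (−0.69 to 0.26). For Kcnip4 neither interval reaches a fall of the size, 2.55, by which diabetic vehicle exceeded nondiabetic vehicle mice. Values from −0.50 to 0.14 lie within both intervals. The doses of the compounds differ, at 5 and 1.7 µg/kg, so their values stand side by side and were not tested against each other.

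**Figure D3:**
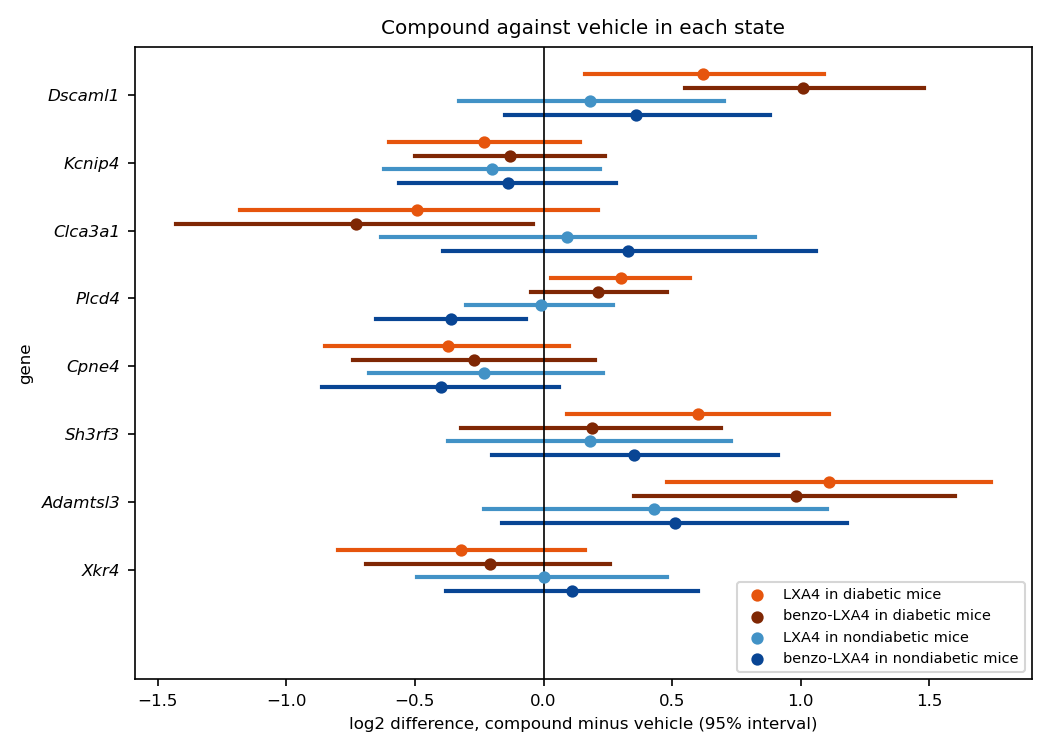
Difference between each compound and vehicle for each gene, on the log2 scale, in diabetic and in nondiabetic mice. Points are estimates from 1 fit of 36 libraries and lines are 95% intervals. Dscaml1 and Adamtsl3 in diabetic mice have intervals above 0 with both compounds, the lowest ends being 0.16 and 0.35, but no point passed after adjustment over all genes.

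In nondiabetic mice 0 of the 8 genes passed with LXA4 and 0 with benzo-LXA4, as did 0% of all genes in each comparison by edgeR (967 and 452 genes at an unadjusted p under 0.05, and 3 and 2 genes by DESeq2). The estimates ran from −0.23 for Cpne4 to 0.43 for Adamtsl3 with LXA4 and from −0.40 for Cpne4 to 0.51 for Adamtsl3 with benzo-LXA4. Whether the compound's difference itself differed between diabetic and nondiabetic mice was tested as an interaction. It passed for 0 of the 8 with LXA4, where 0.248% of all genes passed, and for 0 of the 8 with benzo-LXA4, where 0% of all genes passed by edgeR (673 genes at an unadjusted p under 0.05, and 0 by DESeq2). The largest interaction estimates were those of Clca3a1 with benzo-LXA4, −1.07 (interval −2.07 to −0.07, adjusted p = 1.00), and of Adamtsl3 with LXA4, 0.67 (−0.24 to 1.59, adjusted p = 0.452). For Plcd4 with benzo-LXA4 the interaction was 0.57 (0.17 to 0.96, adjusted p = 0.899).

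How far the genes varied together was examined on log2 levels after each group's mean was taken away, which removes the differences between groups. Over 36 libraries and 36 pairs, formed by the 8 genes and Cdkn1a, which encodes the cell cycle inhibitor p21 and is a p53 target, 1 pair passed. Clca3a1 and Xkr4 had Pearson's r = 0.56 (permutation within groups, p = 0.000760, adjusted p = 0.0274) and Spearman's rho = 0.48 (p = 0.00553, adjusted p = 0.133). Without the 2 libraries farthest from the median of Clca3a1 r was 0.42, and without the 2 shallow libraries it was 0.44. Dscaml1 had values from −0.22 with Clca3a1 to 0.23 with Cpne4, and 0.03 with Kcnip4. With Cdkn1a the values ran from −0.27 for Kcnip4 to 0.42 for Sh3rf3, and none passed after adjustment.

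**Figure D4:**
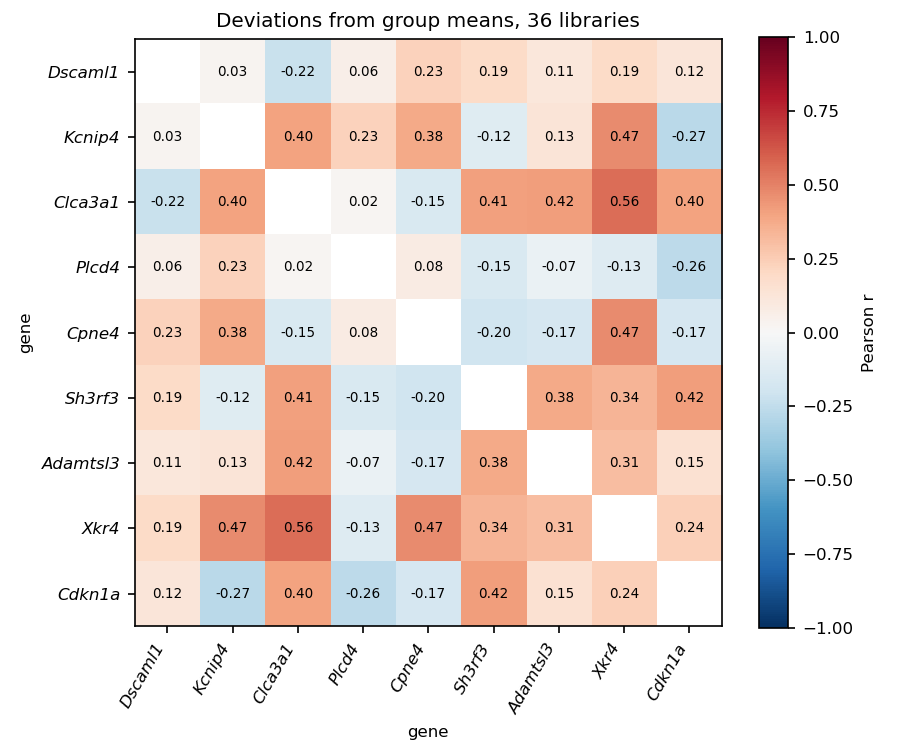
Pearson's r between the log2 levels of each pair of genes over 36 libraries, after subtraction of each group's mean, with Cdkn1a added as a p53 target. Colour and printed value give r; the highest is 0.56, for Clca3a1 with Xkr4, and r for Dscaml1 lies between −0.22 and 0.23 with each other gene.

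Among all genes tested, those closest to each gene by the same measure are given as a description; all points share the depth and make-up of their libraries. Adamtsl3 was closest to Fbxo32 (r = 0.77), Trpm6 (0.72) and Calb1 (0.65), and these r values were 0.74, 0.76 and 0.62 in the 34 libraries left without the shallow pair. Trpm6, a magnesium channel, and Calb1, the calcium-binding protein calbindin, are on the list of 6 loop of Henle and distal tubule markers. Of these, 0 passed in diabetic vehicle mice. In that contrast Calb1 was at log2 0.52, Trpm6 at 0.30 and Slc12a1 at 0.05. Umod was at −0.48, Pvalb at −0.62 and Slc12a3 at −0.15. The list's median sum was 4681 CPM in nondiabetic vehicle, 4028 in diabetic vehicle and 4733 in diabetic LXA4 mice. Over all libraries the median levels of Umod, Slc12a1 and Slc12a3 were 1477, 1180 and 1136 CPM, against 325 for Calb1 and 110 for Trpm6. The sum therefore says little about Calb1 or Trpm6. Dscaml1 was closest to D630045J12Rik (0.74), Lbr (0.70) and Mapt (0.67), and Clca3a1 to Sntg1 (0.79), the thrombin receptor gene F2r (0.79) and B3galt1 (0.78). Plcd4 was closest to Mob3c (0.70), Adgra2 (0.65) and Necap2 (0.65). Cpne4 was closest to Timp3 (0.86), Gm906 (0.85) and Gm42512 (0.83). For the other 3 genes the likeness rested more on the shallow pair. Among the genes closest to Kcnip4, r with Gpc3 went from 0.71 to 0.56 and with Gsta3 from 0.71 to 0.51. Sh3rf3 with Ppp1r14c went from 0.81 to 0.59, with Rad54b from 0.78 to 0.43 and with Gm14168 from 0.77 to 0.45. Xkr4 with Mkl2 went from 0.89 to 0.45, with Ednrb from 0.89 to 0.64 and with Atp6v0d2 from 0.89 to 0.51.

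Genes related to the 8 by protein family or complex mostly did not pass in diabetic vehicle mice. In these family counts, with vehicle, with LXA4 and with benzo-LXA4 refer to diabetic against nondiabetic mice of that treatment. Over all genes 3.44% rose with vehicle, 15.4% with LXA4 and 2.81% with benzo-LXA4, and 2.16%, 12.3% and 1.25% fell. Of 8 genes for Kv4 channels, their KChIP subunits and DPP-like partners, 2 rose with vehicle, 3 with LXA4 and 1 with benzo-LXA4. Kcnip2, another KChIP, rose from 2.61 ± 0.795 to 5.49 ± 2.85 CPM with vehicle (log2 1.10, adjusted p = 0.0223), and Dpp6, an auxiliary subunit of Kv4 channels, from 3.25 ± 0.475 to 9.26 ± 1.94 CPM (1.5, 3.73e-06). Dpp6 also rose with LXA4 (1.66) and benzo-LXA4 (1.34). The channels that KChIP subunits bind did not pass with vehicle: Kcnd1 was at 0.52, Kcnd2 at −0.60 and Kcnd3 at 0.42. The family's median was 0.37, against −0.01 over all genes.

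Of 13 measured immunoglobulin adhesion genes related to Dscaml1, 2 rose with vehicle, 5 rose and 1 fell with LXA4, and 1 rose with benzo-LXA4. Over all genes 3.44% rose with vehicle, 15.4% with LXA4 and 2.81% with benzo-LXA4, and 12.3% fell with LXA4. Dscam, the paralogue of Dscaml1, rose from 0.243 ± 0.141 to 0.851 ± 0.418 CPM with vehicle (log2 1.77, adjusted p = 0.00865), and with benzo-LXA4 its value was 0.98 (0.172). Sdk1, a sidekick adhesion molecule, rose from 48.2 ± 8.96 to 82.2 ± 20.4 CPM with vehicle (0.77, 0.00550), and its values were 0.79 with LXA4 and 0.81 with benzo-LXA4. The list's median was 0.29 with vehicle. Of 6 ADAMTS-like and papilin genes 1 rose with vehicle, 3 with LXA4 and 1 with benzo-LXA4; Papln, which encodes papilin of the matrix, rose from 3.82 ± 0.801 to 6.45 ± 1.54 CPM with vehicle (0.77, 0.00882), by 1.23 with LXA4 and by 0.97 with benzo-LXA4.

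A list of 13 measured genes held the XK-related and TMEM16 scramblase families with Bsg, Nptn and Xrcc4, which belong to neither. Of these 13, 2 rose with vehicle, where 3.44% of all genes did. Ano3, a TMEM16 protein, rose from 0.168 ± 0.109 to 3.27 ± 1.5 CPM (log2 4.11, SE 0.364, adjusted p = 1.13e-09), a larger difference than that of any of the 8, and its values were 3.45 with LXA4 and 3.00 with benzo-LXA4. Ano10 rose from 36.3 ± 4.30 to 42.7 ± 2.04 CPM (0.23, 0.0498). With LXA4 4 rose and 2 fell, Xkr8 (−0.61) and Bsg (−0.42), where 15.4% of all genes rose and 12.3% fell. With benzo-LXA4 3 rose, where 2.81% of all genes did. The XK-related genes measured beside Xkr4 did not pass with vehicle, with Xkr6 at 0.15, Xkr8 at −0.23 and Xkr9 at 0.23.

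**Figure D5:**
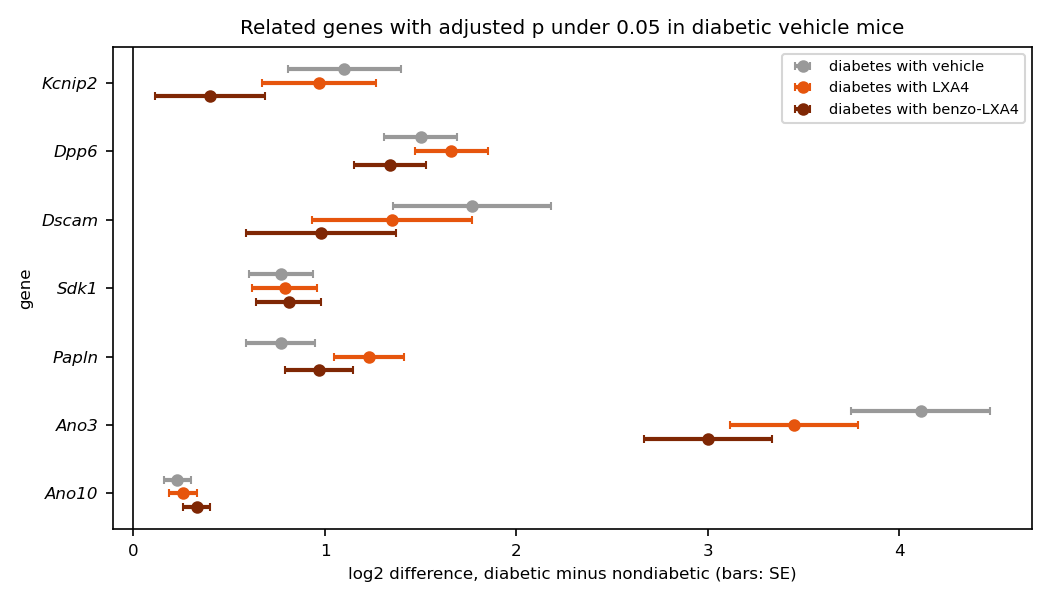
Difference between diabetic and nondiabetic mice for the 7 related genes with an adjusted p under 0.05 in vehicle mice, on the log2 scale, in the 3 treatments. Points are estimates and bars are standard errors. Ano3 lies at 4.11, 3.45 and 3.00, above the 6 other genes, which lie between 0.23 and 1.77.

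The remaining families held no gene that passed with vehicle. Of 13 phospholipase C genes 0 passed with vehicle, 6 rose with LXA4 and 1 with benzo-LXA4. In these contrasts between diabetic and nondiabetic mice, 3.44% of all genes rose with vehicle, 15.4% with LXA4 and 2.81% with benzo-LXA4. The largest vehicle values were Plch1 at 0.56 (edgeR adjusted p = 0.0662) and Plcd3 at −0.32 (0.127).  Of 3 other copines 0 passed with vehicle and 1 rose with LXA4, Cpne2 by 0.98 (0.00237), which is named after its value was seen; Cpne8 was at 0.25 and Cpne3 at 0.08 with vehicle. Of 7 genes for SH3RF proteins, JNK scaffolds and kinases of JNK signalling, 0 passed with vehicle, 2 rose with LXA4 and 0 passed with benzo-LXA4. The largest vehicle values were Sh3rf2 at 0.33 and the kinase gene Map3k11 at −0.27. In diabetic mice none of these family genes passed for LXA4 or benzo-LXA4 against vehicle.

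For comparison, 20 of 39 measured p53 targets rose with vehicle and 0 fell. With LXA4 23 rose and 3 fell, and with benzo-LXA4 18 rose. Over all genes 3.44% rose with vehicle, 15.4% with LXA4 and 2.81% with benzo-LXA4, and 2.16%, 12.3% and 1.25% fell. The vehicle median of these targets was 0.67. The 8 genes were chosen as genes outside that pathway and were left off the list. Cdkn1a was at 4.09 ± 1.35 and 38.6 ± 8.11 CPM in nondiabetic and diabetic vehicle mice, and Eda2r at 0.697 ± 0.120 and 9.95 ± 1.52 CPM. Trp53cor1 (log2 3.26) and Psrc1 (4.40) had the smallest adjusted p of the others. Against diabetic vehicle mice Cdkn1a was at 0.01 with LXA4 and −0.09 with benzo-LXA4, and Dscaml1 at 0.62 and 1.01; the difference between the genes was not tested.

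Several of the 8 genes are best known from neurons, and markers of neurons and Schwann cells were sparse. Of 10 such markers 3 were in the table, with a summed level of 5.50 to 7.07 CPM in nondiabetic vehicle, 5.17 to 6.97 in diabetic vehicle, 4.39 to 6.10 in nondiabetic LXA4, 5.84 to 10.2 in diabetic LXA4, 4.19 to 6.45 in nondiabetic benzo-LXA4 and 5.78 to 8.16 in diabetic benzo-LXA4 mice, and Tubb3, Snap25, Th, Dbh, Sox10 and S100b were among those with no count used here. The ranges of the 2 states overlapped in each treatment, and 0 of the 3 markers passed with vehicle. Sums over 7 urothelial and inner medullary markers ran from 3.14 to 200 CPM over the 36 libraries and those over 4 adipose markers from 0.00 to 300 CPM, with 0 of either list passing in diabetic vehicle mice. Sums over 10 smooth muscle, pericyte and fibroblast markers reached 1056 CPM in a diabetic LXA4 library (group median 286 CPM) and ran from 189 to 404 CPM in the other 5 groups. The part of these cell types in the differences of the 8 genes was not tested.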

How the data were processed

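RNA-seq counts per gene were deposited by the authors as 1 table of 15730 genes in 36 libraries, and the values are raw, whole-number counts. Per the submitters' processing notes, bcl2fastq 2.17.1.14, STAR and featureCounts were used with genome build GRCm38; other versions, the annotation and the strand setting of the counting are not stated by them. Each column was assigned to a sample by the state, treatment and replicate number in its code, with 0 left over. The lowest total of a gene over all libraries was 370 counts, so rarer genes are not in the table. No pair of libraries correlated above 0.9938, and none was merged.

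Counts were tested with edgeR 4.0.16 in R 4.3.3: TMM scaling, filterByExpr (15726 genes kept), 1 quasi-likelihood fit of the 6 groups, and Benjamini-Hochberg adjustment over all genes at 0.05. DESeq2 1.42.0, upper-quartile scaling, no filter, a replicate block, only the compared groups, and each library left out in turn were alternatives; leaving out both shallow libraries was chosen after seeing the data. The steps were tested on simulated data. Depth limits precision most where a gene had few counts, down to 2. Positions, exon lengths and shared 50-base stretches come from GENCODE M21, and promoters from RefSeq on GRCm38.p6.

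The 8 genes and all gene lists were chosen with earlier results of these data known. Named besides them are, for each, the 3 genes with the highest r of deviations from group means (log2 CPM with a prior count of 2), and from each related family the genes passing in diabetic vehicle mice, or else the 2 with the largest difference; other family members are named to complete a subgroup. From the p53 list Cdkn1a, Eda2r and the 2 others with the smallest adjusted p are named. Pairwise p-values come from 100000 permutations within groups. One gene among those closest to Kcnip4 and one neural marker are not reported here.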

Additional observations from a re-analysis of the deposited data

Results flagged for a closer look

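In each group of 6 libraries the highest and lowest level of each gene was compared with the rest by Dixon's criterion (gap over range above 0.625), in 48 combinations of gene and group. Chance alone marks about 1 in 20 groups. It marked 4 values. Plcd4 was at 6.75 CPM in diabetic LXA4 replicate 5, below 9.78 to 10.4 CPM in the other 5 libraries (gap 0.830 of the range). Sh3rf3 was at 3.12 CPM in nondiabetic benzo-LXA4 replicate 2, above 1.10 to 1.57 CPM in the others (0.767). Xkr4 was low in both shallow libraries: at 1.14 CPM in nondiabetic vehicle replicate 3, where the others ran from 3.46 to 4.50 CPM (0.690), and at 0.945 CPM in diabetic LXA4 replicate 6, where they ran from 4.80 to 7.11 CPM (0.625, at the limit).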

How the results depend on the processing

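Between diabetic and nondiabetic mice, 7 of the 8 genes were called with LXA4 and 6 with benzo-LXA4. With LXA4 the count was 8 (Xkr4 added) by DESeq2, without both shallow libraries and without diabetic LXA4 replicate 6. With benzo-LXA4 it was 7 (Xkr4 added) with only the compared groups and without both shallow libraries. With vehicle, Adamtsl3 was called by DESeq2, with only the compared groups and without diabetic vehicle replicate 2. Xkr4 lost its vehicle call with only the compared groups, without nondiabetic vehicle replicate 3 and without diabetic vehicle replicate 3 or 5. Without both shallow libraries it kept that call (edgeR adjusted p = 0.00580). In nondiabetic mice and in both interactions 0 of the 8 were called for either compound under every alternative run. In diabetic mice 1 gene was called in place of 0 for LXA4 by DESeq2 (Adamtsl3). For benzo-LXA4 there it was 1 in place of 0 by DESeq2 and without both shallow libraries (Dscaml1). DESeq2 gave no adjusted p for Plcd4, Sh3rf3, Adamtsl3 and Xkr4 in that benzo-LXA4 comparison, so its count does not cover them. With any 1 library left out the counts for both compounds were 0. With the replicate number as a block, the number of the 8 genes called was 7 for diabetes with LXA4, 6 with benzo-LXA4 and 0 for every compound comparison and interaction, as without it. Over all genes the block lowered LXA4 calls in diabetic mice from 56 to 28 and interaction calls from 39 to 9. In 6 of the 7 comparisons of groups some same-numbered pairs correlated below 0 in their deviations from the group means (r from −0.38 to 0.47 over all 7), and for benzo-LXA4 in nondiabetic mice r ran from 0.09 to 0.41, with 4 of 6 pairs best with their own number. For LXA4 in nondiabetic mice 3 of 6 were best with their own number, with r from −0.20 to 0.47. Since r was not above 0.1 in every pair of any comparison, the numbers were not taken to pair the samples. That does not show that same-numbered libraries share nothing. Calls over all genes also differed between the tools, scalings and sets of libraries: diabetes with vehicle gave 881, but 342 with only the compared groups, 1330 by DESeq2 and 1399 without the shallow pair; with benzo-LXA4 638, but 1875, 1064 and 1906; with LXA4 4353, but 2338 with only the compared groups; LXA4 in diabetic mice 56, but 231 by DESeq2, 35 with upper-quartile factors, 1 with only the compared groups and 93 without the shallow pair; its interaction 39, but 266, 27, 0 and 129. The cause was not tested.

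Differences that changed sign were small and had not passed. Without both shallow libraries the LXA4 difference in nondiabetic mice was −0.01 for Clca3a1 and 0.01 for Plcd4, the benzo-LXA4 difference −0.02 for Xkr4, the LXA4 interaction 0.06 for Kcnip4 and 0.03 for Cpne4, and the benzo-LXA4 interaction −0.01 for Kcnip4, as it was with upper-quartile factors and with only the compared groups. With 1 library left out, LXA4 in nondiabetic mice ran from −0.10 to 0.34 for Clca3a1, −0.09 to 0.09 for Plcd4 and −0.15 to 0.08 for Xkr4, and benzo-LXA4 from −0.02 to 0.20 for Xkr4. The LXA4 interaction ran from −0.14 to 0.07 for Kcnip4, and the benzo-LXA4 interaction from −0.10 to 0.11 for Kcnip4, 0.00 to 0.27 for Cpne4 and −0.31 to 0.10 for Sh3rf3. The cause was not tested. In diabetic mice no compound difference of the 8 genes changed sign. Depth limited Xkr4 and Sh3rf3 most, with 4 and 2 counts in the shallow libraries.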
